A study of Mus musculus with 16 samples.

Results

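ES-restricted genes are taken here as protein-coding genes that embryonic stem (ES) cells expressed and that fibroblasts and hepatocytes hardly did. A gene was included when its level in control ES cells was at least 10 FPKM (fragments scaled to transcript length and library size) and its level in control mouse embryonic fibroblasts (MEFs) and control hepatocytes was below 1 FPKM. Of 20164 protein-coding genes among 23996 in each table, 142 met these limits, after 7 of 10 core pluripotency factors that also met them had been set aside. They were followed in ES cells depleted of Ssu72, a phosphatase that acts on the C-terminal domain of RNA polymerase II. The control ES level chose the genes, so every ratio to it is given as a description, with no test.

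All cells were C57BL/6 and carried Ssu72 alleles with loxP sites around exon 1. Ad-Cre infected cells received Cre recombinase by adenovirus and are labelled Ssu72 KO, and Ad-Luc infected cells received a luciferase adenovirus and are labelled WT. There were 2 Ad-Cre and 2 Ad-Luc samples of ES cells, which derive from the inner cell mass. MEFs from embryos at day 13.5 and hepatocytes purified from mice of 6 weeks by the labels (the study's methods give a younger age) each had 3 Ad-Cre and 3 Ad-Luc samples. The names of the Ad-Luc ES columns carry the letters FS, and they were taken as the ES control from their table and condition. The deposited tables hold 1 FPKM per gene and group, so depth and the part of any 1 sample in a value cannot be read from them. Adenovirus infection was common to all groups, and a floxed gene can be left intact in cells that the virus did not reach.

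The deletion and the cell type were checked first. Ssu72 was at 44.7 FPKM in Ad-Cre ES cells, against 99.2 FPKM in Ad-Luc ES cells, so Ssu72 RNA was reduced and not lost, and transcripts that lack only exon 1 still count in it. The 10 ES markers, which include the pluripotency factors left out of the gene set, lay between 11.0 and 1357 FPKM in Ad-Cre ES cells and between 11.3 and 1250 FPKM in Ad-Luc ES cells. Of 10 fibroblast markers, 7 were below 1 FPKM in Ad-Cre ES cells and 6 in Ad-Luc ES cells; the highest was fibronectin gene Fn1 (87.4 FPKM in Ad-Cre and 101.4 FPKM in Ad-Luc ES cells), and the summed level was 92.4 FPKM in Ad-Cre and 107 FPKM in Ad-Luc ES cells. All 5 hepatocyte markers and 2 of 3 blood markers (Ptprc and Hbb-bs) were below 1 FPKM in Ad-Cre and in Ad-Luc ES cells, while Cd68 had 25.3 FPKM in Ad-Cre and 28.7 FPKM in Ad-Luc ES cells. Summed levels in Ad-Cre against Ad-Luc ES cells were 27.9 and 25.3 FPKM for 7 trophoblast markers, 14.6 and 14.1 FPKM for 8 primitive endoderm markers, and 23.7 and 20.2 FPKM for 10 markers of primed epiblast and early lineages. The part of these markers in the values below was not tested.

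Genes known from pluripotent cells (17 by the roles given here), from germ cells (20) and from the early embryo form part of this set. Pluripotency is held by a network of transcription factors and chromatin proteins that keeps such genes on, while somatic cells commonly silence many of them by DNA methylation and repressive chromatin. A further share encodes signals that ES cells make for themselves, proteins of epithelial junctions, and zinc finger proteins of large gene families that repress retrotransposons and related sequences in ES cells.

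In Ad-Cre ES cells the ES-restricted genes stayed close to their Ad-Luc levels. The median log2 ratio of Ad-Cre over Ad-Luc was 0.022 over the 142 genes, with quartiles at -0.13 and 0.14, and the 6025 other protein-coding genes of at least 10 FPKM had a median of 0.021. The ratio was below 1 for 60 genes (42.3%) and above 1 for 82, and over all 6167 protein-coding genes of this level 44.3% were below 1. The caudal homeobox gene Cdx1 was the only gene higher by more than 1.5-fold, where 0.227% of all 6167 genes were, and 0 of 142 were lower by more than 1.5-fold, where 0.13% of all were. These counts depend on the choice and the scale: 6 genes were higher among those chosen by their Ad-Cre levels, and relative to the ribosomal protein genes described below 0 of the 142 were higher and 4 lower. The shares of all genes under that choice and on that scale were not counted, so these 3 counts are not read as traits of the set. In RNA of whole cultures, fewer cells that express a gene and less RNA per cell cannot be told apart. Together the genes summed to 6114 FPKM in Ad-Cre ES cells (0.857% of all FPKM) and 6071 FPKM in Ad-Luc ES cells (0.92% of all FPKM).

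The ratios were spread more widely than those of the other genes. At the lower limit of 0.32 on the log2 scale, the Ad-Cre level was higher for 11 genes (7.75%) and lower for 7 (4.93%), whereas 2.58% of all genes of this level were higher and 1.56% lower. The width of the interquartile range changed little with level. It was 0.189, 0.180 and 0.178 for the other genes at 10 to 20, 20 to 50 and from 50 FPKM upward. For the ES-restricted genes it was 0.285, 0.289 and 0.250. The median of the other genes did rise with level, so the genes were set beside others in the same range. Between 10 and 20 FPKM the median log2 ratios were 0.04 for the ES-restricted genes and -0.01 for the others, and between 20 and 50 FPKM both were 0.01. From 50 FPKM upward the medians were 0.01 and 0.07, and 43.8% and 30.2% of the ratios were below 1. The near equal medians over all genes thus do not hold at each level. Between 10 and 20 FPKM the interquartile range of log2 ratios ran from -0.10 to 0.19 for the 67 ES-restricted genes and from -0.11 to 0.08 for 2089 others. From 50 FPKM upward it ran from -0.16 to 0.09 for 32 ES-restricted genes and from -0.02 to 0.16 for 1719 others. Of the 32, 0 passed 0.32 in either direction, where 3.20% of the 1719 others were higher and 0.93% lower past it. The FPKM come as 1 value per group and the authors' own test statistics were not used, so this spread was not set against that between samples.

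**Figure D1:**
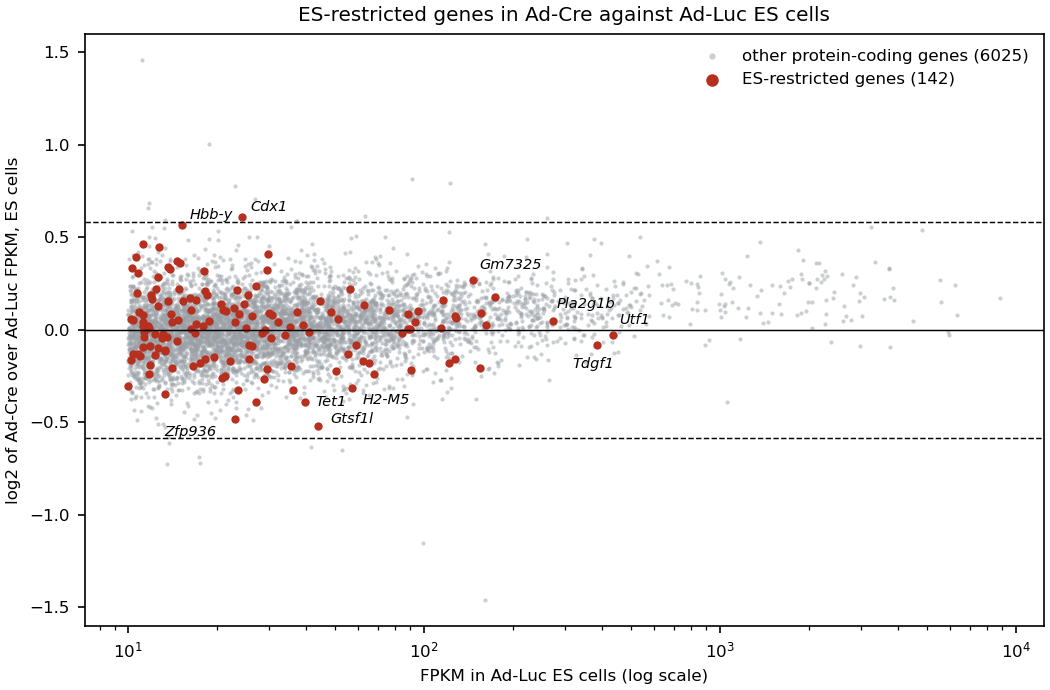
The log2 ratio of Ad-Cre over Ad-Luc FPKM in ES cells (vertical axis) is plotted against the Ad-Luc FPKM on a log axis for 142 ES-restricted genes (red) and 6025 other protein-coding genes (grey), with dashed lines at 1.5-fold. The red points lie around 0 at all levels, and only Cdx1, at 0.61, lies beyond a dashed line.

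**Figure D2:**
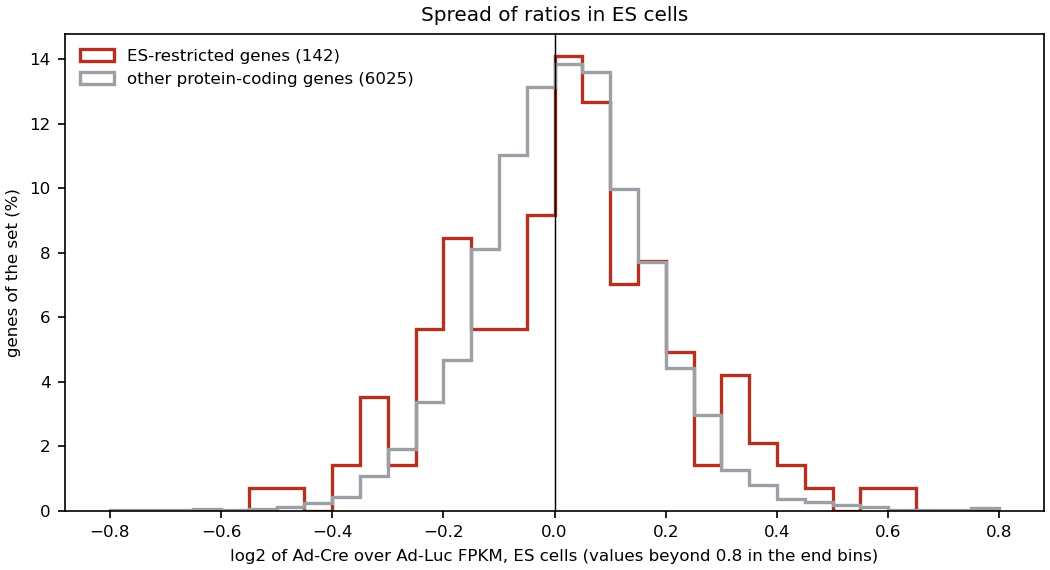
The share of genes in each bin of the log2 ratio of Ad-Cre over Ad-Luc FPKM in ES cells is drawn for 142 ES-restricted genes (red) and 6025 other protein-coding genes (grey). Over all levels together the medians, 0.022 and 0.021, nearly coincide, while from 50 FPKM upward they were 0.01 and 0.07. The red outline has more of its genes in the tails.

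The scale on which Ad-Cre and Ad-Luc cells are compared matters for differences of this size. The 73 cytosolic ribosomal protein genes of at least 10 FPKM had a median log2 ratio of 0.21 in ES cells. Relative to them the median of the ES-restricted genes was -0.18, that of the other genes was also -0.18, and 120 of the 142 lay below. The 60 genes with a log2 ratio between 0 and 0.21 thus change sides between the 2 scales, so that for them the side depends on the scale. Directions below are on the scale of the deposited FPKM, and for each gene named as lower the log2 ratio was further below 0 relative to the ribosomal protein genes.

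The limits of the set were not sharp in the values. Just inside 10 FPKM in Ad-Luc ES cells were Gm14124 (8.12 FPKM in Ad-Cre and 10.01 FPKM in Ad-Luc ES cells), Usp44 (9.11 and 10.2 FPKM) and 2900011O08Rik (10.6 and 10.2 FPKM). Just outside were Ina (10.3 FPKM in Ad-Cre and 9.89 FPKM in Ad-Luc ES cells), Hunk (9.09 and 9.89 FPKM) and Nefh (9.94 and 9.81 FPKM). Nearest to the limit of 1 FPKM in the other cells was Bex4, at 0.992 FPKM in Ad-Luc MEFs, and Enox1, at 1.01 FPKM in Ad-Luc MEFs, was the nearest gene left out. The row of Bex4 is annotated with Bex1 as well, so its value may belong to either gene.

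The 15 genes highest in ES cells spanned pluripotency, germ cell and metabolic functions. Utf1, a chromatin-bound transcription factor of undifferentiated cells, was highest, with 428 FPKM in Ad-Cre and 436 FPKM in Ad-Luc ES cells. Tdgf1, the Nodal co-receptor also called Cripto, had 363 FPKM in Ad-Cre and 385 FPKM in Ad-Luc ES cells. Pla2g1b, a secreted phospholipase known from the pancreas, had 282 FPKM in Ad-Cre and 272 FPKM in Ad-Luc ES cells. The log2 ratios of these 3 genes lay within 0.1 of 0, and Pla2g1b was listed at 0 in all 4 groups of MEFs and hepatocytes. Bex4 had 196 FPKM in Ad-Cre and 173 FPKM in Ad-Luc ES cells, a log2 ratio of 0.18. Stra8, a factor that germ cells need to enter meiosis, had 165 FPKM in Ad-Cre and 162 FPKM in Ad-Luc ES cells. Rbmxl2, a germ cell RNA-binding protein, had 165 FPKM in Ad-Cre and 155 FPKM in Ad-Luc ES cells. Of the remaining 9, Gm7325 (the muscle fusion factor gene Mymx in RefSeq) had the highest log2 ratio, 0.27, with 176 FPKM in Ad-Cre and 146 FPKM in Ad-Luc ES cells. L1td1, an RNA-binding protein derived from a LINE-1 element, had the lowest, -0.20, with 135 FPKM in Ad-Cre and 155 FPKM in Ad-Luc ES cells. Between these lay Dppa4, Tdh, Gm13051, Ooep, Dnmt3l, Nr0b1 and Tcf15, from -0.18 for Ooep to 0.16 for Dnmt3l.

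**Figure D3:**
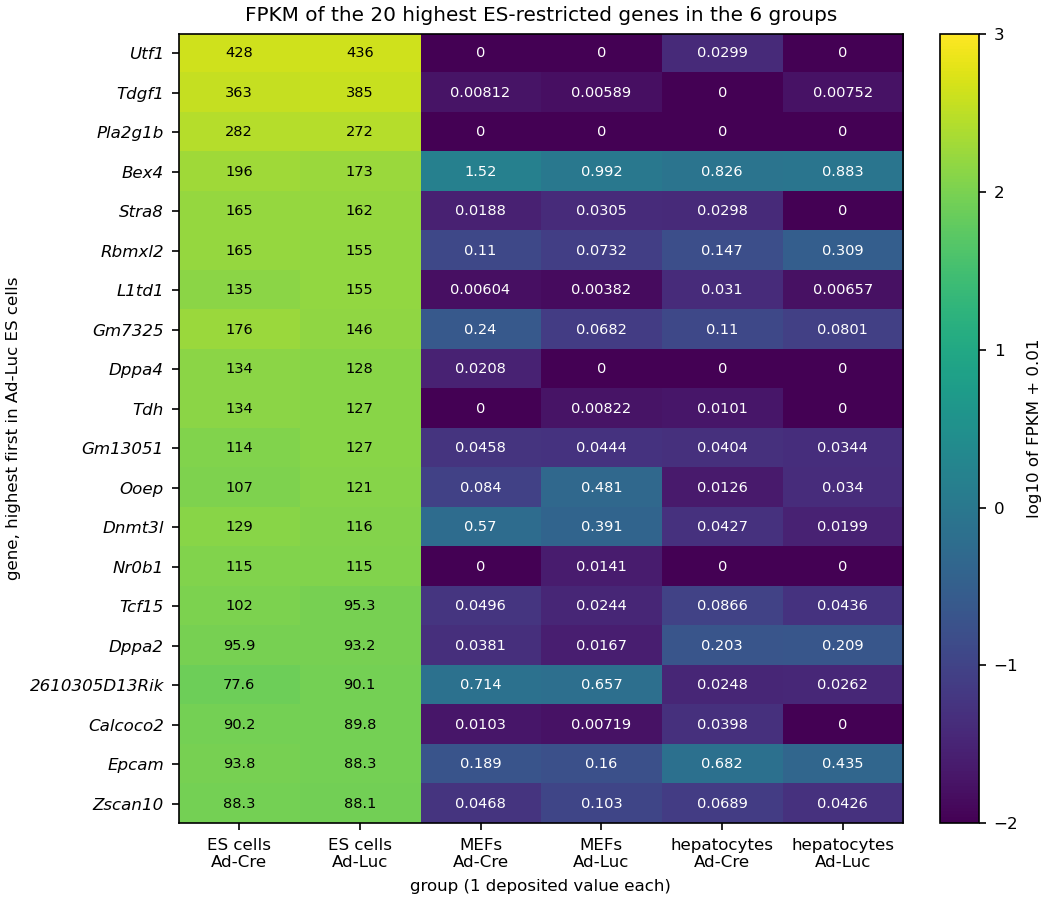
Each cell gives the deposited FPKM of 1 of the 20 genes highest in Ad-Luc ES cells (rows) in 1 of the 6 groups (columns), coloured by the log10 of FPKM + 0.01. The ES columns run from 77.6 to 436 FPKM with like values in Ad-Cre and Ad-Luc cells, and in MEFs and hepatocytes only Bex4 exceeds 1 FPKM, with 1.52 FPKM in Ad-Cre MEFs.

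Among the 17 genes of the pluripotency network the median log2 ratio was 0.04, and 0 passed 0.32 on the log2 scale in either direction. Of all 6167 genes of at least 10 FPKM only 2.58% were higher and 1.56% lower past that limit, so 0 of 17 lies near those shares. Dppa2 and Dppa4, a pair of DNA-binding proteins encoded side by side, had 95.9 and 134 FPKM in Ad-Cre ES cells, against 93.2 and 128 FPKM in Ad-Luc ES cells. Nr0b1, an orphan nuclear receptor also known as Dax1, had 115.4 FPKM in Ad-Cre and 114.5 FPKM in Ad-Luc ES cells. Zscan10, a zinc finger partner of the core factors, had 88.3 FPKM in Ad-Cre and 88.1 FPKM in Ad-Luc ES cells. For these 4 genes the groups gave nearly equal values. The RNA-binding protein gene Lin28a had 53.3 FPKM in Ad-Cre and 51.3 FPKM in Ad-Luc ES cells. Dppa3, which protects the maternal genome from demethylation in the zygote, lay at the high end with 22.5 FPKM in Ad-Cre and 18.03 FPKM in Ad-Luc ES cells, just under that limit. Tcl1, a co-activator of the kinase Akt, lay at the low end with 23.9 FPKM in Ad-Cre and 28.8 FPKM in Ad-Luc ES cells (-0.27). Sox15 (-0.22), the ubiquitin ligase gene Trim71 (-0.21) and L1td1 (-0.20) were next to it. The list of 34 pluripotency genes, 19 of them ES-restricted, held 33 genes of at least 1 FPKM in either group, of which 0 were higher and 0 lower by more than 1.5-fold, with a median log2 ratio of -0.04. Over all 11404 protein-coding genes of at least 1 FPKM in either group, 1.84% were higher and 0.526% lower by more than 1.5-fold.

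The transcription factors of later development held the largest ratio of the set. Cdx1, which patterns the posterior embryo, had 37.0 FPKM in Ad-Cre ES cells, against 24.3 FPKM in Ad-Luc ES cells, a log2 ratio of 0.61. It was at 0.11 FPKM in Ad-Cre MEFs, 0.03 FPKM in Ad-Luc MEFs and 0 in hepatocytes. The other 8 genes lay between -0.10 for Olig2 and 0.14 for Rfx2. Tcf15, a helix-loop-helix factor of epiblast priming, had 102 FPKM in Ad-Cre and 95.3 FPKM in Ad-Luc ES cells. Foxh1, which carries Nodal signals to DNA, had 24.6 FPKM in Ad-Cre and 26.1 FPKM in Ad-Luc ES cells. In the list of 34 early lineage genes, of which Foxh1 alone is ES-restricted, 22 reached 1 FPKM, 1 was higher and 0 lower by more than 1.5-fold, against 1.84% and 0.526% of all genes of at least 1 FPKM. That gene was Eomes, a T-box factor of mesendoderm and trophoblast, with 8.36 FPKM in Ad-Cre and 5.45 FPKM in Ad-Luc ES cells.

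The set held 3 genes of the DNA methylation machinery, and Tet1 had the lowest ratio of them. Dnmt3l, the cofactor of the de novo methyltransferases, had 129 FPKM in Ad-Cre and 116 FPKM in Ad-Luc ES cells (log2 ratio 0.16, which falls below 0 relative to the ribosomal protein genes). Dnmt3b, a de novo methyltransferase, had 40.6 FPKM in Ad-Cre and 41.0 FPKM in Ad-Luc ES cells (-0.01). Tet1, which oxidises methylcytosine, had 30.2 FPKM in Ad-Cre ES cells, against 39.5 FPKM in Ad-Luc ES cells (-0.39), the third lowest ratio of all 142 genes. Its relative Tet2, which is not ES-restricted, had 22.3 FPKM in Ad-Cre and 28.4 FPKM in Ad-Luc ES cells (-0.35). Of 28 genes listed for DNA methylation and chromatin, 22 reached 1 FPKM, 0 passed 1.5-fold in either direction (1.84% of all genes of at least 1 FPKM were higher and 0.526% lower), and the median log2 ratio was -0.04.

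The 20 genes with a role in germ cells had a median log2 ratio of 0.03 and the lowest ratio of the whole set. Gtsf1l, which resembles a small RNA pathway factor of gametes, had 30.7 FPKM in Ad-Cre ES cells, against 43.9 FPKM in Ad-Luc ES cells, a log2 ratio of -0.52, and was listed at 0 in all groups of MEFs and hepatocytes. Rnf17, a component of germ granules, followed with 17.4 FPKM in Ad-Cre and 20.8 FPKM in Ad-Luc ES cells (-0.26). At the other end were Cyct, the cytochrome c of testis, with 17.3 FPKM in Ad-Cre and 13.7 FPKM in Ad-Luc ES cells (0.34), and Tcp11, a testis gene of the t-complex, with 17.3 FPKM in Ad-Cre and 13.8 FPKM in Ad-Luc ES cells (0.33). Ooep, an oocyte protein of the subcortical maternal complex, had 107 FPKM in Ad-Cre and 121 FPKM in Ad-Luc ES cells. Trap1a, an X-linked tumour antigen gene, had 81.8 FPKM in Ad-Cre and 75.9 FPKM in Ad-Luc ES cells. Of the other germ cell genes on the germline list, Tex19.1 had a log2 ratio of 0.02, the RNA helicase gene Ddx4 -0.02, Dmrt1 -0.08, the piRNA factor gene Mael -0.12, Syce1 of the synaptonemal complex 0.16, Sohlh2 0.17 and the X-linked homeobox gene Rhox5 0.22. Of 78 measured germline genes, 10 of them ES-restricted, 40 reached 1 FPKM and 0 passed 1.5-fold in either direction, where 1.84% of all genes of at least 1 FPKM were higher and 0.526% lower. Of 27 measured genes listed for rare cells resembling the embryo at its first cleavage, 0 are ES-restricted and 26 were below 1 FPKM in Ad-Cre and in Ad-Luc ES cells. The exception, Zfp809, had 22.6 FPKM in Ad-Cre and 23.7 FPKM in Ad-Luc ES cells. It also had 27.4 FPKM in Ad-Cre and 29.4 FPKM in Ad-Luc hepatocytes, and 7.01 and 8.13 FPKM in MEFs, so it marks no rare state here.

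Signals and receptors lay near their Ad-Luc levels, with a median log2 ratio of -0.05 over 12 genes. A ratio below 1 was found for 7 of the 12, where 44.3% of all genes of at least 10 FPKM had one. Fgf4, the growth factor by which ES cells drive their own exit from self-renewal, had 83.0 FPKM in Ad-Cre and 84.1 FPKM in Ad-Luc ES cells. Nodal had 69.1 FPKM in Ad-Cre and 62.9 FPKM in Ad-Luc ES cells (0.14). Gdf3, a ligand of the same family, had 31.0 FPKM in Ad-Cre and 35.6 FPKM in Ad-Luc ES cells (-0.20). Their co-receptor gene Tdgf1 stood at -0.08, and all 3 lay below 0 relative to the ribosomal protein genes. The receptor tyrosine kinase gene Kit had 19.6 FPKM in Ad-Cre and 22.0 FPKM in Ad-Luc ES cells (-0.17), and Fgf17 had 11.2 FPKM in Ad-Cre and 12.3 FPKM in Ad-Luc ES cells (-0.14). The gut hormone gene Sct had the highest ratio of the 12, with 18.9 FPKM in Ad-Cre and 14.6 FPKM in Ad-Luc ES cells (0.37). In the list of 36 signalling genes, 29 reached 1 FPKM, 0 were higher and 1 lower by more than 1.5-fold, against 1.84% and 0.526% of all genes of at least 1 FPKM. The lower gene was Gdf1, which is not ES-restricted, with 2.62 FPKM in Ad-Cre and 4.22 FPKM in Ad-Luc ES cells.

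Of the 9 epithelial genes, 7 had a ratio above 1 and 2 below 1, where 44.3% of all genes of at least 10 FPKM were below 1. The median log2 ratio of the 9 genes was 0.10, which falls below 0 relative to the ribosomal protein genes. Epcam, an adhesion molecule of epithelia and ES cells, had 93.8 FPKM in Ad-Cre and 88.3 FPKM in Ad-Luc ES cells. Spint1, an inhibitor of membrane serine proteases, had 65.4 FPKM in Ad-Cre and 56.1 FPKM in Ad-Luc ES cells (0.22). Ap1m2, an epithelial subunit of the AP-1 sorting adaptor, had 31.9 FPKM in Ad-Cre and 27.1 FPKM in Ad-Luc ES cells (0.24). Spint1, Ap1m2 and Krt42 alone of the 9 stayed above 0 relative to the ribosomal protein genes. The keratin gene Krt17 stood at -0.16 and its neighbour Krt42 at 0.22, while the claudin genes Cldn6 and Cldn7 had -0.16 and 0.17 on the deposited scale and both fell below 0 relative to the ribosomal protein genes. Of 38 genes listed for epithelial adhesion, 35 reached 1 FPKM, 1 was higher and 1 lower by more than 1.5-fold, against 1.84% and 0.526% of all genes of at least 1 FPKM. Krt18, a keratin of simple epithelia that is not ES-restricted, was the higher one, with 55.7 FPKM in Ad-Cre and 37.0 FPKM in Ad-Luc ES cells, and the integrin gene Itgb7 was the lower one, with 10.6 FPKM in Ad-Cre and 17.5 FPKM in Ad-Luc ES cells.

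Enzymes and transporters had a median log2 ratio of 0.04 over 15 genes. Tdh, the threonine dehydrogenase on which mouse ES cells depend for single-carbon units, had 134 FPKM in Ad-Cre and 127 FPKM in Ad-Luc ES cells. Aqp3, a water and glycerol channel, had 33.3 FPKM in Ad-Cre and 33.9 FPKM in Ad-Luc ES cells. The glycosyltransferase gene B4galnt4 was among the highest ratios, with 39.4 FPKM in Ad-Cre and 29.7 FPKM in Ad-Luc ES cells (0.41). Pnp2, a purine nucleoside phosphorylase, had 19.3 FPKM in Ad-Cre and 14.99 FPKM in Ad-Luc ES cells (0.36). Atp1b2, a sodium pump subunit, lay at the other end with 18.7 FPKM in Ad-Cre and 23.5 FPKM in Ad-Luc ES cells (-0.33). Of 44 genes of the metabolism list, 32 reached 1 FPKM, 2 were higher by more than 1.5-fold (Cbr3 and Ass1, neither ES-restricted) and 0 lower, against 1.84% and 0.526% of all genes of at least 1 FPKM.

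The 8 blood and immune genes had a median log2 ratio of 0.13 and the 7 neuronal and cytoskeletal genes 0.14, and both medians fall below 0 relative to the ribosomal protein genes. The ratio was above 1 for 6 genes in each group and below 1 for 2 and 1. Over all genes of at least 10 FPKM 44.3% were below 1, and the difference was not tested. Members of both groups were widely spread, and those named first were taken for the size of their ratio. Hbb-y, the embryonic beta-like globin, had 22.4 FPKM in Ad-Cre and 15.2 FPKM in Ad-Luc ES cells (log2 ratio 0.57), just under 1.5-fold, and was listed at 0 in MEFs and hepatocytes. Sptbn4, a spectrin of axons, had 17.3 FPKM in Ad-Cre and 12.7 FPKM in Ad-Luc ES cells (0.45), and Mapt, the microtubule protein tau, had 12.95 FPKM in Ad-Cre and 10.3 FPKM in Ad-Luc ES cells (0.33). Islr2, a neuronal membrane protein, had 10.5 FPKM in Ad-Cre and 13.4 FPKM in Ad-Luc ES cells (-0.34), and the MHC class I gene H2-M5 had 46.1 FPKM in Ad-Cre and 57.2 FPKM in Ad-Luc ES cells (-0.31). Gm8909 (-0.01), Dok2 (0.01) and Palm3 (0.00) lay at 0. Among the 31 genes given no common role, whose median was 0.03, the highest ratios were those of Wdr86, a WD repeat protein with 15.5 FPKM in Ad-Cre and 11.2 FPKM in Ad-Luc ES cells (0.46), and Cilp2, a cartilage matrix protein with 14.01 FPKM in Ad-Cre and 10.7 FPKM in Ad-Luc ES cells (0.39).

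**Figure D4:**
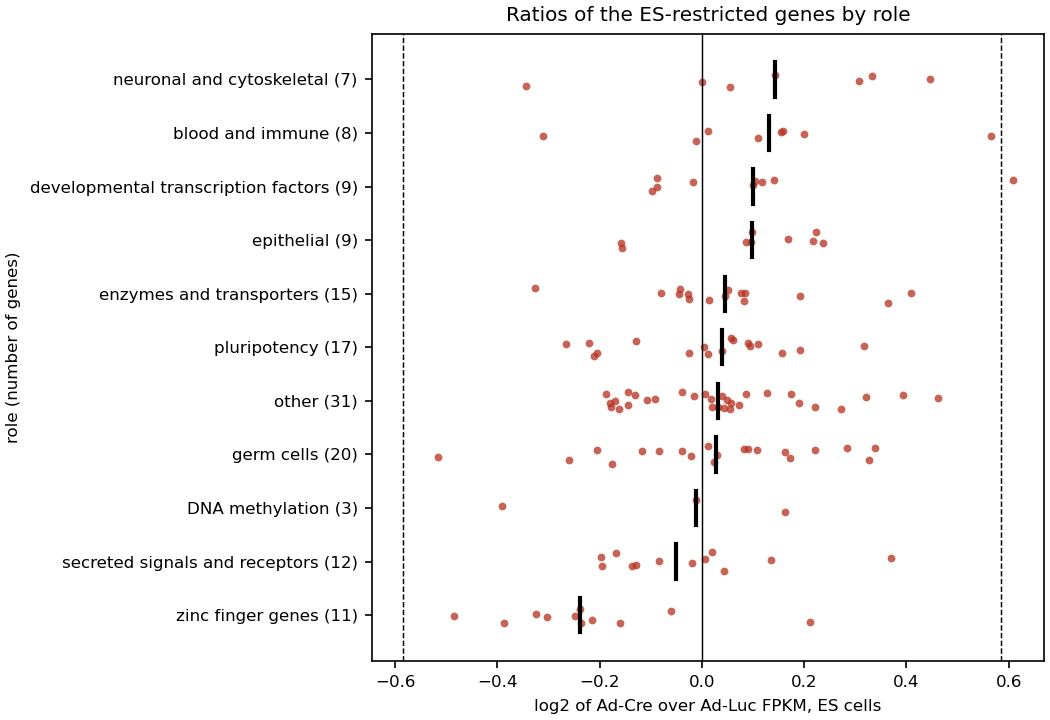
Each point is 1 of the 142 genes, placed by its log2 ratio of Ad-Cre over Ad-Luc FPKM in ES cells (horizontal axis) and by a role given by hand (vertical axis, with the number of genes), and black bars mark medians. The medians run from -0.24 for zinc finger genes to 0.14 for neuronal and cytoskeletal genes, and only Cdx1 lies beyond the dashed lines at 1.5-fold.

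Zinc finger protein genes stood at the low end. This group was noticed after the values were seen and carries no test. It holds 11 genes that the files or RefSeq name as zinc finger proteins and that no other role covers, of which 10 had a ratio below 1, with a median log2 ratio of -0.24. Zfp936 had 16.4 FPKM in Ad-Cre and 22.9 FPKM in Ad-Luc ES cells (-0.48), and Gm10324 had 20.6 FPKM in Ad-Cre and 27.0 FPKM in Ad-Luc ES cells (-0.39). The exception was 2410141K09Rik, with 21.1 FPKM in Ad-Cre and 18.3 FPKM in Ad-Luc ES cells (0.21). Among zinc finger genes counted under other roles, Zfp423 was at -0.02 and Zscan10 at 0.00. By name alone the set holds 13 zinc finger genes, of which 11 (84.6%) had a ratio below 1, with a median of -0.24. Among genes of at least 10 FPKM outside the set, 101 were named so, of which 64 (63.4%) had a ratio below 1, with a median of -0.03. Without the 11 genes the median of the ES-restricted genes was 0.04.

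**Figure D5:**
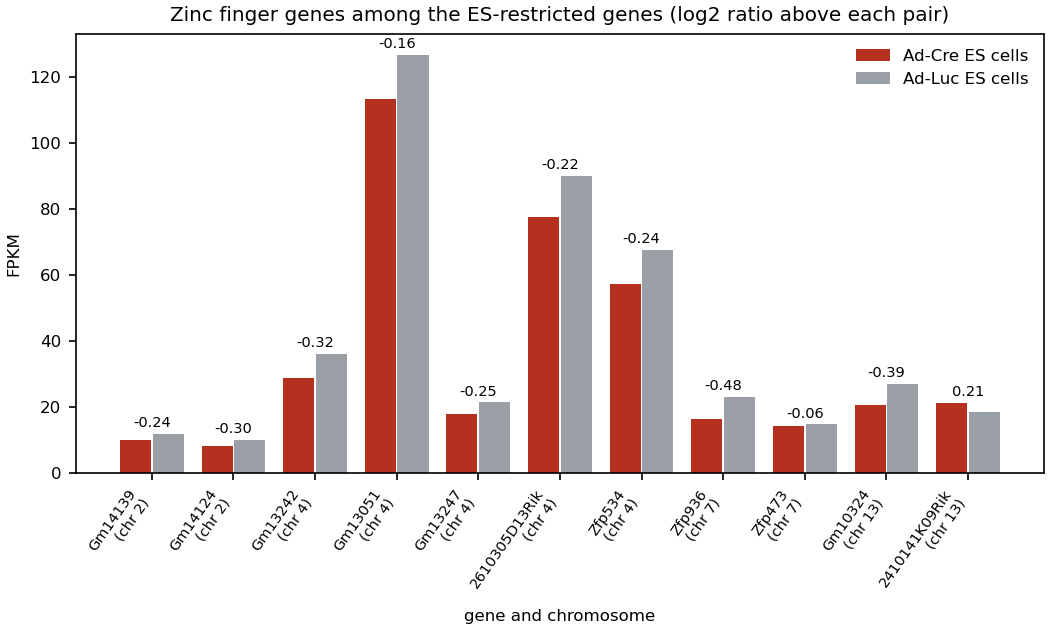
Bars give the deposited FPKM of the 11 zinc finger genes in Ad-Cre (red) and Ad-Luc (grey) ES cells, ordered by chromosome and position, with the log2 ratio above each pair. The Ad-Cre bar is the shorter for 10 genes, and 2410141K09Rik, at 0.21, is the exception.

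Of these genes, 5 lie in a stretch of 2.03 Mb on chromosome 4 of mm10. From the centromeric end they are Gm13242 (chr4:145670696-145704437, Zfp980 in RefSeq), Gm13051 (chr4:146097311-146126623, Zfp987), Gm13247 (chr4:146501999-146546873, Zfp981), 2610305D13Rik (chr4:147611935-147642508, Zfp979) and Zfp534 (chr4:147674224-147702631). Gm13242 had 28.8 FPKM in Ad-Cre and 36.0 FPKM in Ad-Luc ES cells, and Gm13051 had 114 FPKM in Ad-Cre and 127 FPKM in Ad-Luc ES cells. Gm13247 had 17.9 FPKM in Ad-Cre and 21.3 FPKM in Ad-Luc ES cells. 2610305D13Rik had 77.6 FPKM in Ad-Cre and 90.1 FPKM in Ad-Luc ES cells, and Zfp534 had 57.3 FPKM in Ad-Cre and 67.6 FPKM in Ad-Luc ES cells. All 5 were lower in Ad-Cre ES cells, with log2 ratios between -0.32 and -0.16. The same stretch holds 8 further genes of at least 1 FPKM in either group, and all 8 were lower too, with a median log2 ratio of -0.41. Over all protein-coding genes of at least 10 FPKM 44.3% had a ratio below 1, and the share at 1 FPKM is not given here. The 8 include the pseudogenes Znf41-ps and Gm13238 and the non-coding 4933438K21Rik (0.64 FPKM in Ad-Cre and 1.14 FPKM in Ad-Luc ES cells). Zfp600, also of the 8, had 5.25 FPKM in Ad-Cre and 7.06 FPKM in Ad-Luc ES cells, and Rex2 had 4.78 FPKM in Ad-Cre and 6.33 FPKM in Ad-Luc ES cells. When genes of at least 1 FPKM were read in order along the chromosomes, the run of genes with a ratio below 1 that covers this stretch was the longest of 2929 such runs, with 15 genes, and 2 other runs had 13 genes. The stretch was picked because its ES-restricted genes were lower, and the genes of the run may share fragments. Its rank is therefore a description and carries no test. The lower values of the stretch were those of ES cells. Its highest genes in MEFs, Znf41-ps and Gm13251, had 5.73 and 4.64 FPKM in Ad-Cre, against 5.12 and 4.34 FPKM in Ad-Luc MEFs. In hepatocytes the same genes had 2.18 and 1.88 FPKM in Ad-Cre, against 2.12 and 1.94 FPKM in Ad-Luc cells. The 5 genes have promoters that resemble each other, and where transcripts do so too, fragments may have been shared among them, so their values are not independent. The same may hold for the 8 further genes, whose transcripts were not compared.

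The promoters of these genes are shown because all 5 genes were lower in Ad-Cre ES cells. The windows hold 250 bases before and 50 after the RefSeq start (GRCm38.p6) and are written in the direction of the gene. They lie at chr4:145670447-145670746 (plus strand) for Gm13242, chr4:146097062-146097361 (plus strand) for Gm13051, chr4:146514670-146514969 (plus strand) for Gm13247, chr4:147642459-147642758 (minus strand) for 2610305D13Rik and chr4:147702582-147702881 (minus strand) for Zfp534. Capitals mark the letters ATTGGGCG, which hold an inverted CCAAT box and were picked after the windows had been read.
Gm13242: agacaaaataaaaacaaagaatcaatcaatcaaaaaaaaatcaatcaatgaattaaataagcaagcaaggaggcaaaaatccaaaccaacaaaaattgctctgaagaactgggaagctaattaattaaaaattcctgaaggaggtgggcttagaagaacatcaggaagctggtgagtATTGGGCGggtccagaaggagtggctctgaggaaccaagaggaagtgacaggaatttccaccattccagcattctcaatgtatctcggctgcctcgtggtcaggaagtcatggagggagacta
Gm13051: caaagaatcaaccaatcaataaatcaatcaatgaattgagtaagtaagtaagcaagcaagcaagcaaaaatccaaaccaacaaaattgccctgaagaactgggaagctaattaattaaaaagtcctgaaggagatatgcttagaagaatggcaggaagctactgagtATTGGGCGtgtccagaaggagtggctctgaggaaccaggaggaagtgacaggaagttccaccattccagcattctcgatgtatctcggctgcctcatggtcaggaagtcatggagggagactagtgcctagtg
Gm13247: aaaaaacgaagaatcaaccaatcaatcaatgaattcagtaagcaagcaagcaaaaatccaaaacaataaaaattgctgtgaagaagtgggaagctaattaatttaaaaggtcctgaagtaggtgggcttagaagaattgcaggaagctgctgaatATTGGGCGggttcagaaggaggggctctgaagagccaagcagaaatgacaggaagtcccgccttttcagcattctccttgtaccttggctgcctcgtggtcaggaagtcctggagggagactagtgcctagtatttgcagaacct
2610305D13Rik: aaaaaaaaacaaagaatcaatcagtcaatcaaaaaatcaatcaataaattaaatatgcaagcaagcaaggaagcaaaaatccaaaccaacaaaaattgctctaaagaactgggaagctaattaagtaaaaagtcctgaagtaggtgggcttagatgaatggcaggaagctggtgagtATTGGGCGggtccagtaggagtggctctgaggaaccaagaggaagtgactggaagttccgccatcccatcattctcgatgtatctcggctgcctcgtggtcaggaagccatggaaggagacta
Zfp534: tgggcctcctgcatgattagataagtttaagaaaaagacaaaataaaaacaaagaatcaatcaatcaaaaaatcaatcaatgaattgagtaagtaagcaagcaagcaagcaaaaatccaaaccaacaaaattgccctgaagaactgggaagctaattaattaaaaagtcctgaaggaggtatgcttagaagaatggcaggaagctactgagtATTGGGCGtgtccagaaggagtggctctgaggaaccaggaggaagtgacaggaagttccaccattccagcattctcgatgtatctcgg
Each window was slid along the others without gaps, and the best overlap had between 58.0% and 94.5% identical bases over the 10 pairs. Gm13051 and Zfp534 shared the longest run, of 121 bases, and a run of 15 bases (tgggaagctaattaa) was common to all 5. ATTGGGCG, on either strand, occurred in these 5 and in no other of the 108 ES-restricted promoters, in 1.09% of 4953 promoters of other protein-coding genes of at least 10 FPKM and in 0.599% of all 27025 promoters.

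A pair on chromosome 2 gave a like picture. Gm14139 (chr2:150181754-150193279) had 9.98 FPKM in Ad-Cre and 11.8 FPKM in Ad-Luc ES cells, and its neighbour Gm14124 (chr2:150257516-150270300) had 8.12 FPKM in Ad-Cre and 10.01 FPKM in Ad-Luc ES cells, with log2 ratios of -0.24 and -0.30. Their windows at chr2:150181505-150181804 (plus strand) and chr2:150257267-150257566 (plus strand) were the only ones of the set with an octamer, the letters ATGCAAAT that POU factors such as Oct4 can bind, marked here in capitals.
Gm14139: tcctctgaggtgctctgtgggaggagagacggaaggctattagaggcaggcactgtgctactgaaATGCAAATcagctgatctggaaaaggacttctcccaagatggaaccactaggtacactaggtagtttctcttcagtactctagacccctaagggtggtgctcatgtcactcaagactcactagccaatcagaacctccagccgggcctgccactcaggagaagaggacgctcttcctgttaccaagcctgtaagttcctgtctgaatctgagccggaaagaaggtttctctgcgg
Gm14124: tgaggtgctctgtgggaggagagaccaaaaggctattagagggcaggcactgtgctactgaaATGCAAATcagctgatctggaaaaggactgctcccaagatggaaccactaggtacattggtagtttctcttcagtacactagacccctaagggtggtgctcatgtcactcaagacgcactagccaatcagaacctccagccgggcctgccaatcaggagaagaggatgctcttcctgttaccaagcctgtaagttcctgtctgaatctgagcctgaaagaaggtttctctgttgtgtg
The windows had 69.9% identical bases at their best overlap and shared a run of 50 bases that contains the octamer. It occurred, on either strand, in 1.85% of ES-restricted promoters, in 1.23% of 4953 promoters of other protein-coding genes of at least 10 FPKM and in 1.77% of all promoters. Pairwise overlaps between the windows of chromosome 2 and those of chromosome 4 reached at most 34.8% identical bases.

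Neighbours within the set were then counted on the scale of the deposited FPKM, with the pairs above included. Of 16 groups of ES-restricted genes that lay within 100 kb of each other, with 34 genes in all, 9 had all their ratios on the same side of 1. Of 18 adjacent pairs, 11 (61.1%) were on the same side, and of 3862 adjacent pairs among all protein-coding genes of at least 10 FPKM 51.7% were, a difference that was not tested. Zfp936 and EU599041 on chromosome 7 were both lower, at -0.48 and -0.18, and so were Sox15 (-0.22) and Atp1b2 (-0.33) on chromosome 11. Gdf3 and Dppa3 on chromosome 6 lay on opposite sides, at -0.20 and 0.32, although 24.9 kb covers both. B4galnt4, Pkp3 and Ano9 on chromosome 7 had 0.41, 0.10 and -0.02, and Olig1 and Olig2 on chromosome 16 had 0.12 and -0.10, both below 0 relative to the ribosomal protein genes. The 142 genes fell on 20 chromosomes, most often on chromosome 7 (18 genes, 12.7% of the set, against 7.86% of all genes of this level).

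The promoters of the set were poorer in CpG dinucleotides than those of the other expressed genes, though not poorer than promoters at large. A window was matched for 108 of the 142 genes, 6 of them through a newer RefSeq symbol, and the ratio of observed to expected CpG had a median of 0.465, against 0.822 for 4953 other protein-coding genes of at least 10 FPKM and 0.389 for all 27025 promoters. A ratio of at least 0.6 was reached by 44 ES-restricted promoters (40.7%), 83.8% of the other expressed promoters and 36.5% of all. TATAAA, on either strand, was in 14 windows (12.96%), in 6.04% of the other expressed promoters and in 14.2% of all. The GC box GGGCGGGG was in 20 windows (18.5%), in 36.1% of the other expressed promoters and in 17.8% of all, and the E-box CACGTG was in 12 windows (11.1%), in 11.6% of the other expressed promoters and in 7.24% of all. Genes with CpG-rich windows had a median log2 ratio of 0.01 over 44 genes and those with CpG-poor windows 0.04 over 64.

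Neither gene length nor level ordered the ratios within the set. Spearman's rho of the log2 ratio with the length of the deposited locus was -0.03 over 142 ES-restricted genes and -0.31 over 6025 others, and with the mean FPKM it was -0.01 and 0.30, given here across genes that share the same libraries. The 23 ES-restricted genes of 50 kb or more had a median log2 ratio of -0.02 and the 55 under 10 kb 0.02, whereas the 1422 and 1489 others of these lengths had -0.05 and 0.08. The set is short, with a median locus of 12.4 kb against 22.4 kb for the others.

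In MEFs and hepatocytes the ES-restricted genes stayed low after Ssu72 depletion, and 0 of 142 reached 10 FPKM in either. In Ad-Cre MEFs 11 genes (7.75%) reached 1 FPKM, as did 2.89% of the 7810 protein-coding genes below 1 FPKM in both Ad-Luc MEFs and Ad-Luc hepatocytes, many of which were at 0 in both MEF groups. In Ad-Cre hepatocytes 7 (4.93%) did, as did 2.27% of those genes. The rule capped the Ad-Luc value only, which favours higher values in Ad-Cre cells: of the 141 genes chosen on Ad-Cre values instead, 6 reached 1 FPKM in Ad-Luc MEFs and 2 in Ad-Luc hepatocytes. Summed over the set, the level was 41.8 FPKM in Ad-Cre and 27.0 FPKM in Ad-Luc MEFs, and 34.3 FPKM in Ad-Cre and 25.1 FPKM in Ad-Luc hepatocytes. Of the 133 genes above 0 in either MEF group, 88 were higher (66.2%) and 45 lower (33.8%) in Ad-Cre MEFs, where 61.7% of 5059 such genes were higher and 38.3% lower. Of the 120 above 0 in either hepatocyte group, 88 were higher (73.3%) and 32 lower (26.7%) in Ad-Cre hepatocytes, where 66.5% of 4120 such genes were higher and 33.5% lower. These shares lie near those of the wider sets.

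The genes that reached 1 FPKM came from several roles. Lck, a tyrosine kinase of T cells, had 2.07 FPKM in Ad-Cre and 0.91 FPKM in Ad-Luc MEFs. Notum, a secreted inhibitor of Wnt proteins, had 1.88 FPKM in Ad-Cre and 0.88 FPKM in Ad-Luc MEFs. Islr2 had 1.69 FPKM in Ad-Cre and 0.13 FPKM in Ad-Luc MEFs, the opposite direction to ES cells. Next were Aqp3 (1.55 FPKM in Ad-Cre and 0.78 FPKM in Ad-Luc MEFs), Bex4 (1.52 and 0.99 FPKM), the membrane-bound Palm3 (1.49 and 0.52 FPKM), the motor protein gene Myo1f (1.40 and 0.49 FPKM), the kinase gene Rps6ka6 (1.23 and 0.65 FPKM), the forkhead gene Foxd3 (1.23 and 0.94 FPKM) and Cilp2 (1.13 and 0.23 FPKM). In hepatocytes the highest were Spint1, with 1.22 FPKM in Ad-Cre and 0.85 FPKM in Ad-Luc cells, and Kit, with 1.14 FPKM in Ad-Cre and 0.90 FPKM in Ad-Luc cells. Palm3 had 1.12 FPKM in Ad-Cre and 0.37 FPKM in Ad-Luc hepatocytes, Adap1 1.09 and 0.39 FPKM, Dnmt3b 1.08 and 0.97 FPKM, and Dok2 and Kbtbd8 1.06 FPKM each in Ad-Cre, against 0.70 and 0.92 FPKM in Ad-Luc hepatocytes. Palm3 and Dok2 reached 1 FPKM in both cell types, and Foxd3 was among them as 1 of the 17 pluripotency genes of the set. At these levels the values rest on few fragments, and their error was not assessed.

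Some values may include reads of other genes. The loci of 5 ES-restricted genes overlap another gene of at least 10 FPKM in Ad-Luc ES cells (2410076I21Rik with Nptn, Fam169a with Nsa2, Fbxo15 with Timm21, Gng3 with Bscl2, and Sox15 with Mpdu1), and whether strand was used in counting is not given in the sources used here. The zinc finger genes, Bex4 and Pnp2 belong to families with similar members, whose transcripts were not compared here, so their values are uncertain as far as fragments could be shared.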

How the data were processed

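RNA-seq of 16 samples was analysed from 3 tables, 1 per cell type. The authors deposited 1 FPKM per gene and group, made with Cuffdiff; per the labels' processing notes the tools were CASAVA, TopHat2 2.0.13, DESeq, edgeR and Cuffdiff 2.2.0 on mm10, and by the methods the libraries were of total RNA, kept strand and contained ERCC controls. The tables' fold changes, test statistics, p-values and q-values are the authors' own comparisons and were not used; shorter tables that repeat rows were not used either. Depth per sample is unknown, and since each FPKM stands for a whole group, no SD over samples and no further test could be computed.

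The log2 ratio of Ad-Cre over Ad-Luc FPKM was taken without a pseudocount, with Python 3.11.15, pandas 2.3.3 and numpy 2.4.6. Genes past 1.5-fold were counted. The code was tested on simulated data with planted genes. The members, roles and lists were chosen with earlier results of these data known. Named were the 15 highest genes, the 12 largest ratios in each direction, up to 8 members per list, genes reaching 1 FPKM in other Ad-Cre cells (up to 10 each), genes at the limits and neighbours within 100 kb; the zinc finger group, other genes of its chromosome 4 stretch, and list genes outside the set that passed 1.5-fold or that relate to a member were named after their values were seen. Not every gene named by the rule is printed. Promoters came from RefSeq (GRCm38.p6), the most upstream window per gene. The alternatives changed the pseudocount, the level limits, the group that chose the genes, the scaling, the genes left out and the fold limit. One member's own values are not reported here.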

Additional observations from a re-analysis of the deposited data

How the results depend on the processing

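Under most alternatives 0 genes were lower and 1 higher by more than 1.5-fold. For a changed level limit, choice or scale the shares of all genes were not counted, so those counts have no share beside them. With a minimum of 5 FPKM, 2 were lower and 7 higher, of 270 genes. With members chosen by the Ad-Cre values 6 were higher, and by the mean values 2. At a limit of 0.32 on the log2 scale 7 were lower and 11 higher, and at 2-fold 0 were higher. Centred on the ribosomal protein genes, 4 were lower and 0 higher, 84.5% had a ratio below 1, and the median log2 ratio turned to -0.183 for the ES-restricted genes and to -0.184 for the others; this follows from the centre of 0.21. The other alternatives moved neither median by over 0.1 and kept the share below 1 between 36.2% and 50%. Leaving out zinc finger genes or overlapping loci, both added after seeing the data, changed no count. No paired analysis was possible because the tables hold 1 value per group, and for the same reason no sample could be left out in turn. A gene near 10 FPKM can enter or leave the set by a small change, and 21 of the 142 genes were not chosen on the Ad-Cre values.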
